A study of Mus musculus with 4 samples.

Results

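The genes described here are 33 members of the secretory pathway and the unfolded protein response, taken by name out of 32285 genes measured in each of 2 single-cell expression libraries. They cover the J chain and the antibody-assembly factor Mzb1, the surface receptor Slamf7, the elongation factors Eaf2 and Ell2, protein entry into the endoplasmic reticulum (ER), chaperones, lectins, disulfide and proline isomerases, ER-associated degradation, and the stress factors Atf4 and Atf6. The list was drawn up by name and role, with earlier results of these data known. The cells were tumour-infiltrating B220+ and CD138+ cells, sorted 18 days after subcutaneous transfer of MC38 colon carcinoma cells. Recipients were C57BL/6 females, 12 to 16 weeks old. The control mice were Prdm1 f/f and the knockout mice Prdm1 f/f CD19cre, so both groups carried the floxed alleles and the cre, driven from a B lineage gene, was the difference. Tumours of 11 recipients were pooled per genotype, and 1 expression library and 1 B cell V(D)J library were made from each pool. There is therefore no replicate of either genotype, no test was possible, and every interval below is a 95% interval for counting error only.

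A cell that secretes protein feeds it through the Sec61 channel into the ER, where signal peptidase trims it, chaperones and disulfide isomerases fold it, and misfolded chains are pulled back out and degraded. When unfolded protein accumulates, the sensors Ire1 (Ern1), Atf6 and Perk (Eif2ak3) switch on genes for these steps; Ire1 acts through Xbp1 and Perk through Atf4. Plasma cells, which secrete antibody at a high rate, are known for an enlarged ER and for high levels of this programme, and Prdm1 encodes Blimp-1, a transcription factor needed to form them.

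The control library kept 804 of 816 barcodes and the knockout library 865 of 897 after filtering. Depth differed: the median kept cell held 5946.5 unique molecular identifiers (UMIs, each a counted RNA molecule) in the control library, against 4022 for the knockout. The libraries shared 2 kept barcodes. Jchain-high cells, the plasma cell class, were set as cells with 100 or more Jchain UMIs; there were 47 in the control. The knockout held 0 of 865, with an exact upper limit of 0.426%. The plasma-like cluster held 49 control and 3 knockout cells, and each of the 3 had fewer than 2 of the plasma cell markers. Because it sets the class, Jchain is left out of every summed value. Of the B-like cells, 238 were in the control and 295 in the knockout, divided into a cluster led by Fcer2a (199 and 139) and a cluster with the highest Fcrl5 (39 and 156). The leading genes of the Fcrl5 cluster included the dendritic cell genes Fscn1, Il12b and Ccr7 beside Ms4a1 and Cd79a. A rule of at least 2 B cell markers per cell took 2 control and 4 knockout cells out of it, all with a Fscn1 UMI, which 3 of the 39 and 7 of the 156 remaining cells also had. The sorted cells also held NK-like (93 and 143), T-like (72 and 79), pDC-like (plasmacytoid dendritic cell-like, 39 and 38), macrophage-like (91 and 43) and basophil-like cells (33 and 45). Prdm1 itself had 43 UMIs in the Jchain-high cells. It had 1 UMI in control B-like cells and 17 in knockout B-like cells, and since the deleted part of the gene is not given in the sources used here, these counts do not check the deletion. Levels are given as UMIs per 1000000 UMIs of the class (CPM).

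In the control, 32 of the 33 members had a higher CPM in Jchain-high than in B-like cells, and 30 were at least 2 times as high. Over all 8429 genes with 50 or more UMIs, immunoglobulin genes left out, these shares were 18.2% and 6.11%. Jchain, which sets the class, is in both counts of members, and its place there was fixed in advance. The 32 members without Jchain summed to 31617 CPM (31269 to 31968) in the Jchain-high cells and to 4010 CPM (3882 to 4141) in B-like cells, a ratio of 7.88 (7.62 to 8.16). Among the other classes the sum ran from 3778 CPM in basophil-like to 8798 CPM in pDC-like cells, with 4645 in macrophage-like, 4930 in NK-like and 5069 in T-like cells. Of the named classes the pDC-like cells were thus second, at an interval of 8468 to 9137 CPM that does not touch those of the classes below. Immunoglobulin genes and Jchain took 47.2% of the UMIs of Jchain-high cells and 2.30% of those of B-like cells, so a CPM over all UMIs lowers every other gene in the plasma cells. With those genes left out of the denominator the ratio over B-like cells was 14.6.

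To separate plasma-restricted from general members, the Jchain-high level was divided by the highest level among B-like, NK-like, T-like, pDC-like, macrophage-like and basophil-like cells. All 33 members passed the 50-UMI filter. It counted all kept control cells, so Jchain, Eaf2, Fkbp11, Derl3 and Tram2 passed it only with the UMIs of the Jchain-high cells. All of these but Tram2 are among the members at least 5 times as high below. The genes of the background passed by the same filter. On this scale 9 members were at least 5 times as high (background over all genes, 0.285%), 14 were 2 to 5 times as high (background 0.89%) and 10 were under 2 times. In all, 29 members were higher than in every other named class (background 3.88%). Jchain is among the 9, the 29 and the 17 given below, and its place there was fixed in advance by the class rule. The clusters without a name were not among the classes compared, here or in the backgrounds. Among them were the clusters led by Gzmg and Gzmd (84 control cells) and by S100a9 and S100a8 (72 control cells). The median over the 32 members was 2.66, beside 0.237 over all genes. The members nearest the line were Creld2 at 5.08 and Edem1 at 5.19 inside, and Sdf2l1 at 4.95 and Tram2 at 4.35 outside. With immunoglobulin genes and Jchain left out of the CPM, 17 members reached 5 times (background 0.7%), 11 lay between 2 and 5 times and 5 under 2 times. For 16 of the 33 members the next highest class was the pDC-like cells, against 20.9% of all genes.

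**Figure D1:**
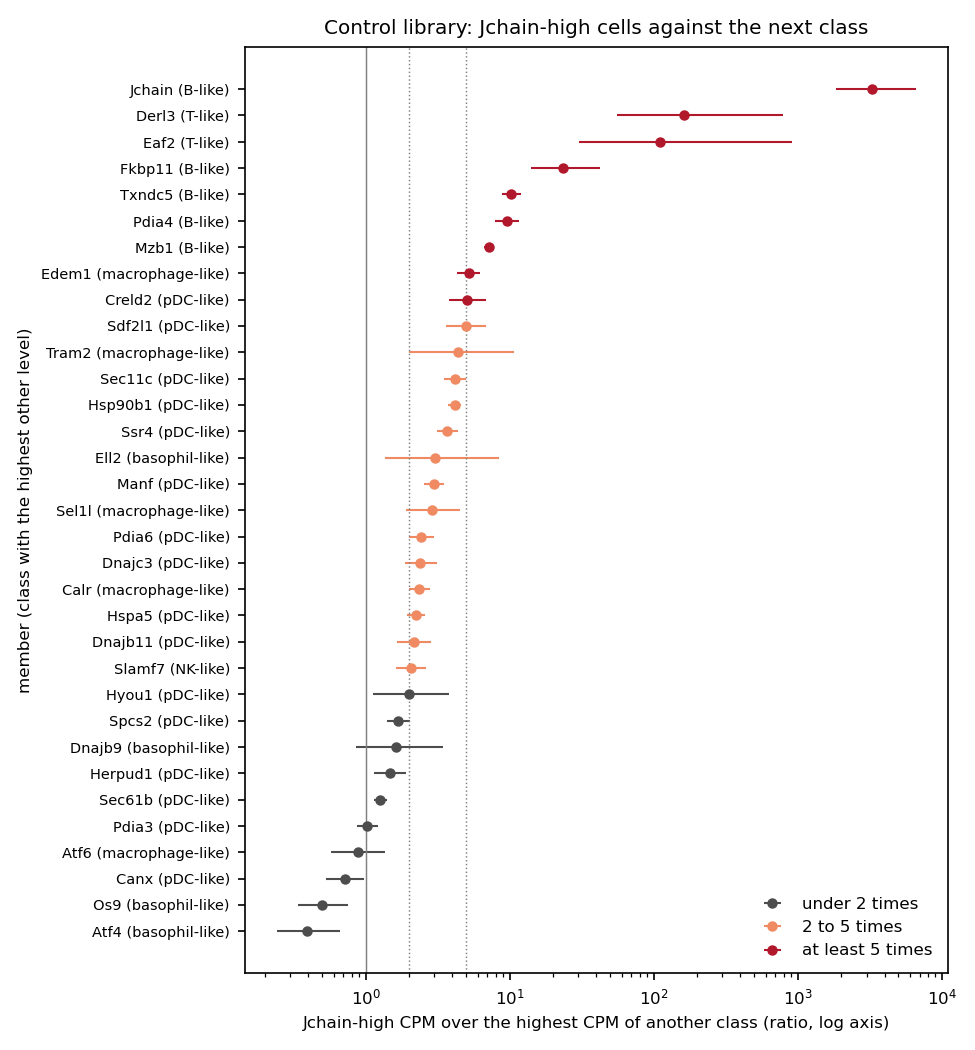
Ratio of the Jchain-high CPM to the highest CPM of any other named class in the control library (log axis) for each member, with the class that holds that level in brackets. Bars are 95% counting intervals and dotted lines mark 2 and 5 times. Of the members, 9 lie at or above 5 times, Jchain, which sets the class, among them. Canx, Os9, Atf4 and Atf6 lie below 1.

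Promoters were compared because ER stress factors are known to act through short promoter elements. RefSeq promoters of build GRCm38.p6 were found for 28 of the 33 members, 33 promoters in all, since a gene can have several starts. Mzb1, Sec11c, Hyou1, Manf and Atf6 had none. The 250 bases before the start were searched on both strands for the ER stress response element (ERSE, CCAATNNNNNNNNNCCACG), the shorter ERSE-II (ATTGGNCCACG) and the core of the unfolded protein response element (TGACGTG); none of these overlapped another in the members. The ERSE was found in 8 of 28 members (28.6%), namely Hspa5, Hsp90b1, Dnajc3, Creld2, Calr, Canx, Pdia6 and Derl3, and in 31 of 20267 genes overall (0.153%). The ERSE-II was found in Herpud1 alone among members (3.57%) and in 10 genes overall (0.0493%), and the TGACGTG core in Hspa5 and Txndc5 (7.14%) and in 403 genes overall (1.99%). Among 57 other genes of the pathway with a promoter, the ERSE was found in 1 (1.75%) and the ERSE-II in 0. The core was found in 5 of these 57 (8.77%), so it was no more frequent in members than in the rest of the pathway. The sequences below are shown for a chaperone with both elements, a plasma-restricted and a general gene that both hold the ERSE, the chaperone with 2 copies, and the holders of the other elements. Capitals mark the matches. A match describes the letters and does not show binding. The Txndc5 stretch lies before an internal start, within the span of the gene (38500266 to 38528824 on chromosome 13).
Hspa5, chr2:34771840-34772089, plus strand: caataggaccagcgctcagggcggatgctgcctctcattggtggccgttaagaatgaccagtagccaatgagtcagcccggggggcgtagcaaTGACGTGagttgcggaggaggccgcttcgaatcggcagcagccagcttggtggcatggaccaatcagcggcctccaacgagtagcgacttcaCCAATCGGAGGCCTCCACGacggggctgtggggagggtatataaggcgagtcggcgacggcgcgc
Hsp90b1, chr10:86705445-86705694, minus strand: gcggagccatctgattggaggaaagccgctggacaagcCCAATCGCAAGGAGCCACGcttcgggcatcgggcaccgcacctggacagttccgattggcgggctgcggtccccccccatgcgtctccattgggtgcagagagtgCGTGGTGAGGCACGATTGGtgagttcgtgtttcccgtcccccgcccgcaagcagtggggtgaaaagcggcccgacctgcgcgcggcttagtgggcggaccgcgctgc
Derl3, chr10:75893148-75893397, plus strand: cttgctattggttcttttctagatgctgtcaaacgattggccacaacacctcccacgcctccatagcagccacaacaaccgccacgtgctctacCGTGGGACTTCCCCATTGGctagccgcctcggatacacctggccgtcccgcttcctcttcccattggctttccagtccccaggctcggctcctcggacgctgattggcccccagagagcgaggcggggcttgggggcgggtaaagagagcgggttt
Canx, chr11:50325674-50325923, minus strand: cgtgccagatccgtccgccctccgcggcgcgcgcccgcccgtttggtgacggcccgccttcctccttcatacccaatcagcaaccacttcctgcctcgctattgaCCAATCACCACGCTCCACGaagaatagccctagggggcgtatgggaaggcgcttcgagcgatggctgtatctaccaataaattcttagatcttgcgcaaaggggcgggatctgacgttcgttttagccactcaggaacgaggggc
Herpud1, chr8:94386179-94386428, plus strand: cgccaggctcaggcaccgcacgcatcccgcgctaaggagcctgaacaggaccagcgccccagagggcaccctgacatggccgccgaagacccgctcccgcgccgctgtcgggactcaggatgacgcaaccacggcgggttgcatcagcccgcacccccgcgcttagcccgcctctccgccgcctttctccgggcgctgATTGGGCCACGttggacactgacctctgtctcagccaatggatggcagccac
Txndc5, chr13:38527915-38528164, minus strand: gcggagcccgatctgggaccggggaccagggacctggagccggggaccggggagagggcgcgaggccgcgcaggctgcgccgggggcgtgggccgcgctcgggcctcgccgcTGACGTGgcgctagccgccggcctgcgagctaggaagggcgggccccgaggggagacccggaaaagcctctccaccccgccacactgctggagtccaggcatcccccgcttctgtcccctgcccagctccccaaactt
The same ERSE letters stand before Derl3, 162 times as high in Jchain-high cells as in the next class, and before Canx, at 0.72 times. Over the 8 holders the Jchain-high over B-like ratio had a median of 7.54, and over the 19 other members with a promoter, Jchain left out, it was 7.20. The medians of holders and other members thus lay close together.

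Jchain, which links IgA and IgM into polymers, had 291, 793 and 1972 UMIs in the lowest, median and highest of the 47 cells that it defines. Mzb1, an ER co-chaperone that helps antibody heavy chains assemble, had 4, 77 and 543 UMIs per cell in the same order. Its level was 4860 CPM in Jchain-high and 676 CPM in B-like cells, a ratio of 7.19 (6.61 to 7.83), and B-like cells were the next highest class. By level, Mzb1 was low in the remaining classes: it was at 223 CPM in pDC-like cells but at 6.20 CPM in NK-like, 5.91 in macrophage-like and 4.90 in T-like cells, with 0 UMIs in basophil-like cells. The NK-like cells had 0 Jchain UMIs in the control, which bears on free RNA from the plasma cells: at the limit of 3 Jchain counts, that RNA would add 0.576 CPM of Mzb1. Slamf7, a surface receptor of plasma and NK cells, was at 284 CPM in Jchain-high cells and at 138 CPM in NK-like cells, a ratio of 2.06 (1.62 to 2.64). Clusters without a name were not part of this ratio, and they held many of the 1010 Slamf7 UMIs of the control. The ratio therefore holds for the named classes only.

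The elongation factors, which are known to favour the secreted form of antibody RNA in the case of Ell2, differed from each other. Eaf2, a partner of the ELL proteins, was seen in 46 of 47 Jchain-high cells at 359 CPM and had 3.25 CPM, from 3 UMIs, in all control B-like cells. Its ratio over the next class, T-like cells with 2 UMIs, was 110 (30.2 to 911). Ell2 was at 163 CPM in Jchain-high cells and 53.8 CPM in basophil-like cells, a ratio of 3.04 with an interval of 1.37 to 8.39. In the control, Eaf2 was thus near 0 outside the plasma cells, while Ell2 was found at lower levels in the other named classes. With immunoglobulin genes and Jchain left out of the CPM, the Ell2 ratio was 5.75, past 5 times, so its category depends on the denominator.

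Of the 5 members for protein entry into the ER, 3 were 2 to 5 times and 2 under 2 times as high as in the next class. Sec61b, a subunit of the import channel, was at 1875 CPM in Jchain-high, 1479 in pDC-like and 391 in B-like cells, and the ratio over pDC-like cells was 1.27 (1.14 to 1.41). The translocon-associated Ssr4 had 10, 35 and 93 UMIs in the lowest, median and highest Jchain-high cell and a ratio of 3.67 over pDC-like cells. Of the signal peptidase complex, the catalytic subunit Sec11c had a ratio of 4.17 and the accessory subunit Spcs2 a ratio of 1.68, both over pDC-like cells. Tram2, a translocation-associated membrane protein, was sparse, with 41.1 CPM in Jchain-high cells and UMIs in 27 of the 47 cells.

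The 9 chaperones and co-factors were raised to different degrees. Hsp90b1 (Grp94), a chaperone known to fold a limited set of client proteins, had 8, 68 and 581 UMIs per cell, 5012 CPM in all, 1207 CPM in pDC-like and 309 CPM in B-like cells. Its ratio was 16.2 (14.4 to 18.3) over B-like and 4.15 (3.73 to 4.63) over pDC-like cells. Hspa5 (BiP), the main Hsp70 chaperone of the ER and a common readout of stress there, differed less, with 1665 CPM in Jchain-high, 745 in pDC-like, 252 in B-like and about the same level in NK-like (497), T-like (502) and macrophage-like cells (529). The small stress-induced factors were further from B-like cells: Sdf2l1, a co-chaperone of BiP, was 23.9 times as high, Creld2 19.7 times and Manf, a secreted ER stress protein, 14.6 times. The BiP co-chaperones Dnajb11, Dnajc3 and Dnajb9 were 4.81, 8.48 and 4.20 times as high as in B-like cells, and the Hsp70-type Hyou1 4.44 times. The last 2 were under 2 times the highest other class, at 1.62 (0.856 to 3.45) for Dnajb9 and 1.99 (1.13 to 3.78) for Hyou1.

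The lectins that hold glycoproteins in the folding cycle differed in their levels. Soluble Calr was at 587 CPM in Jchain-high and 248 CPM in macrophage-like cells, a ratio of 2.36 (2.01 to 2.78). Membrane-bound Canx was at 151 CPM in Jchain-high and 210 CPM in pDC-like cells, a ratio of 0.72 (0.535 to 0.982). Leaving immunoglobulin genes out of the CPM moved Canx to 1.36, so its direction depends on the denominator.

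The isomerases ranged from 1.02 (Pdia3) to 23.5 times (Fkbp11) the next class. Fkbp11, a proline isomerase of secretory cells, was at 381 CPM in Jchain-high and 16.2 CPM in B-like cells, 23.5 times as high (14.1 to 42.4), with 0 UMIs in NK-like, pDC-like and basophil-like cells of the control. Txndc5, a disulfide isomerase, had 8, 40 and 90 UMIs per Jchain-high cell and 2097 CPM, 10.3 times its level in B-like cells (204 CPM), and Pdia4 was 9.53 times as high. These 3 had B-like cells as the next class. Pdia6 was 2.43 times and Pdia3, the isomerase that works with Calr and Canx, 1.02 times (0.867 to 1.21) the level of pDC-like cells.

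The degradation genes ranged from 0.50 (Os9) to 162 times (Derl3) the next class. Derl3, a Derlin channel protein, had UMIs in 46 of 47 Jchain-high cells and 793 CPM, while its 3 UMIs in T-like cells gave the next highest level, a ratio of 162 (55.2 to 787). Edem1, which marks misfolded glycoproteins, was 5.19 times as high as in macrophage-like cells and 21.9 times as high as in B-like cells. Sel1l, the adaptor of the Hrd1 ubiquitin ligase, was 2.89 times its macrophage-like level. Herpud1 was 1.47 times its pDC-like level, and the lectin Os9 was at 147 CPM in Jchain-high but 296 CPM in basophil-like cells, a ratio of 0.50 (0.339 to 0.750). With immunoglobulin genes and Jchain left out of the CPM, this Os9 ratio was 0.94, so its distance from 1 depends on the denominator.

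The stress factors were near their B-like levels per UMI of the class. Atf4 was at 77.2 CPM in Jchain-high and 86.5 CPM in B-like cells, a ratio of 0.89 (0.644 to 1.24), and was the only member below its B-like level. Atf6 was at 48.1 and 38.9 CPM, a ratio of 1.24 (0.786 to 1.96). With immunoglobulin genes and Jchain left out of the CPM these ratios were 1.65 and 2.29, and those over the highest other class went from 0.39 to 0.74 for Atf4 and from 0.88 to 1.68 for Atf6, so the direction of Atf4 over B-like cells and of Atf6 over the highest other class depends on the denominator. Both are regulated largely after transcription, so these RNA levels do not report on their activity.

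**Figure D2:**
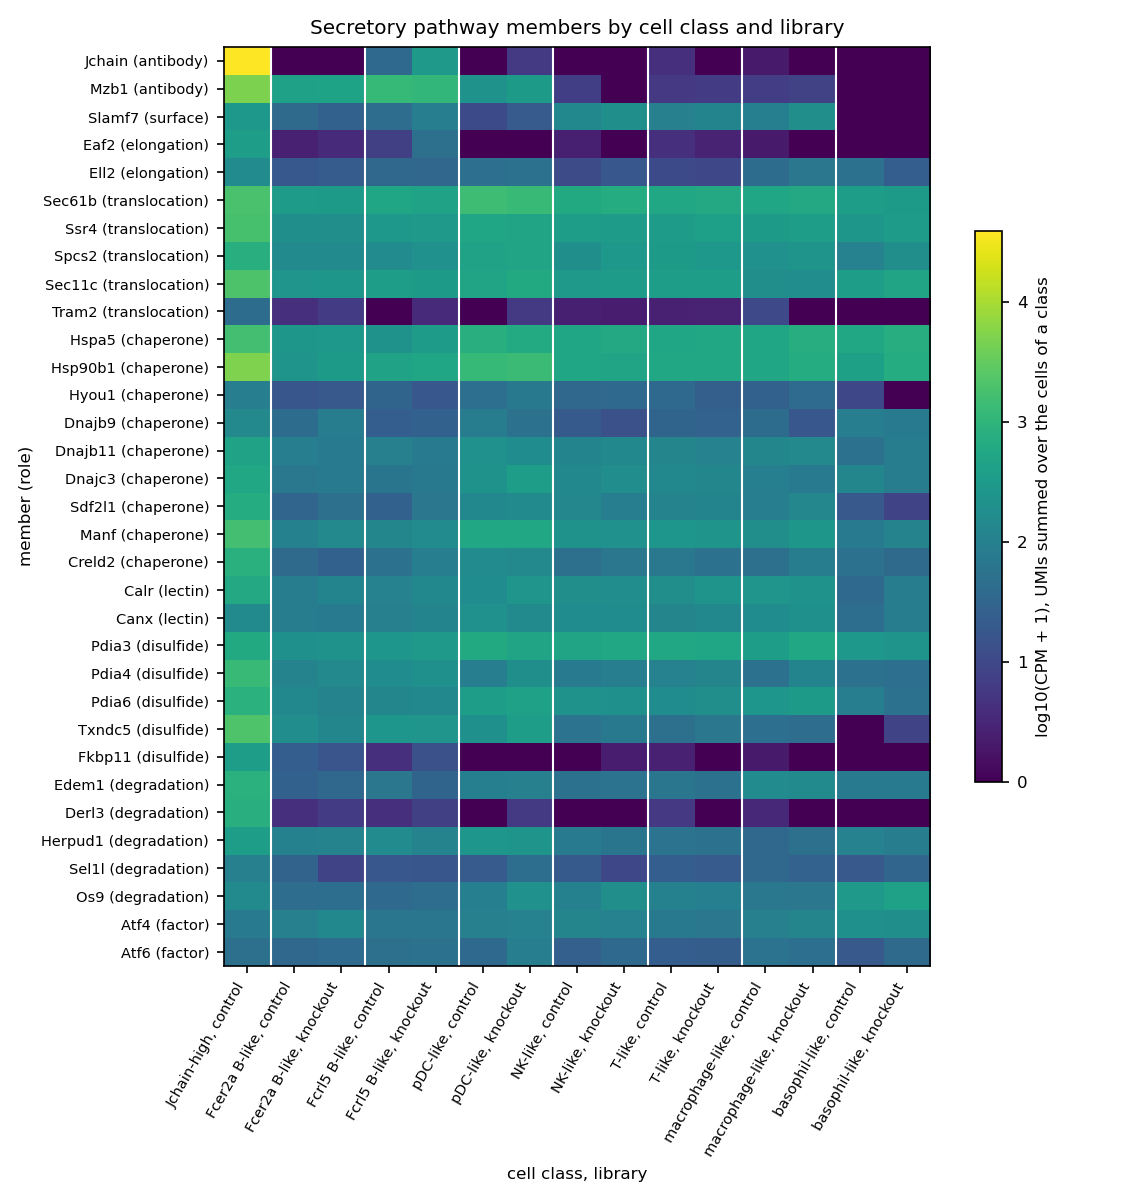
Level of each member, as log10 of CPM plus 1, in each cell class and library (columns, white lines separate classes; rows give the role in brackets). Jchain, Eaf2, Fkbp11 and Derl3 are bright in the Jchain-high column and near 0 in most others, while Pdia3, Hspa5 and Sec61b are bright across classes.

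The 47 Jchain-high cells differed among themselves. Per 1000000 UMIs outside immunoglobulin genes and Jchain, the summed members had a lowest, median and highest value of 22982, 50531 and 115332, and this value had a Spearman's rho of 0.00 with the immunoglobulin share of the cell (18.3% to 78.3%) and 0.20 with its total UMIs. On the same scale the chaperones varied together. The highest rho of the 496 pairs was that of Sdf2l1 with Manf (0.88), followed by Hspa5 with Manf (0.76), Hsp90b1 with Sdf2l1 (0.75) and Hsp90b1 with Pdia4 (0.73). In all, 73 pairs were above 0.5, with a median of 0.17 over all pairs. Txndc5, Eaf2, Tram2, Atf4 and Atf6 had medians of -0.03, -0.05, -0.02, -0.03 and 0.00 with the other members, beside 0.43 for Hspa5 and Manf. The lowest pair was Mzb1 with Eaf2, at -0.57, while Mzb1 with Fkbp11 was at 0.66. The 28 pairs among the 8 ERSE holders had a median of 0.58 and a range of 0.03 to 0.70, with Canx and Hsp90b1 the lowest pair. The 171 pairs among the other members with a promoter had a median of 0.10 and a range of -0.38 to 0.62. Manf, which had no promoter, is in neither group, and a link of the ERSE to these values was not tested. These values describe 47 cells of 1 library that share its depth and denominator, and the part of each gene's count depth was not tested, so they are a description only.

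**Figure D3:**
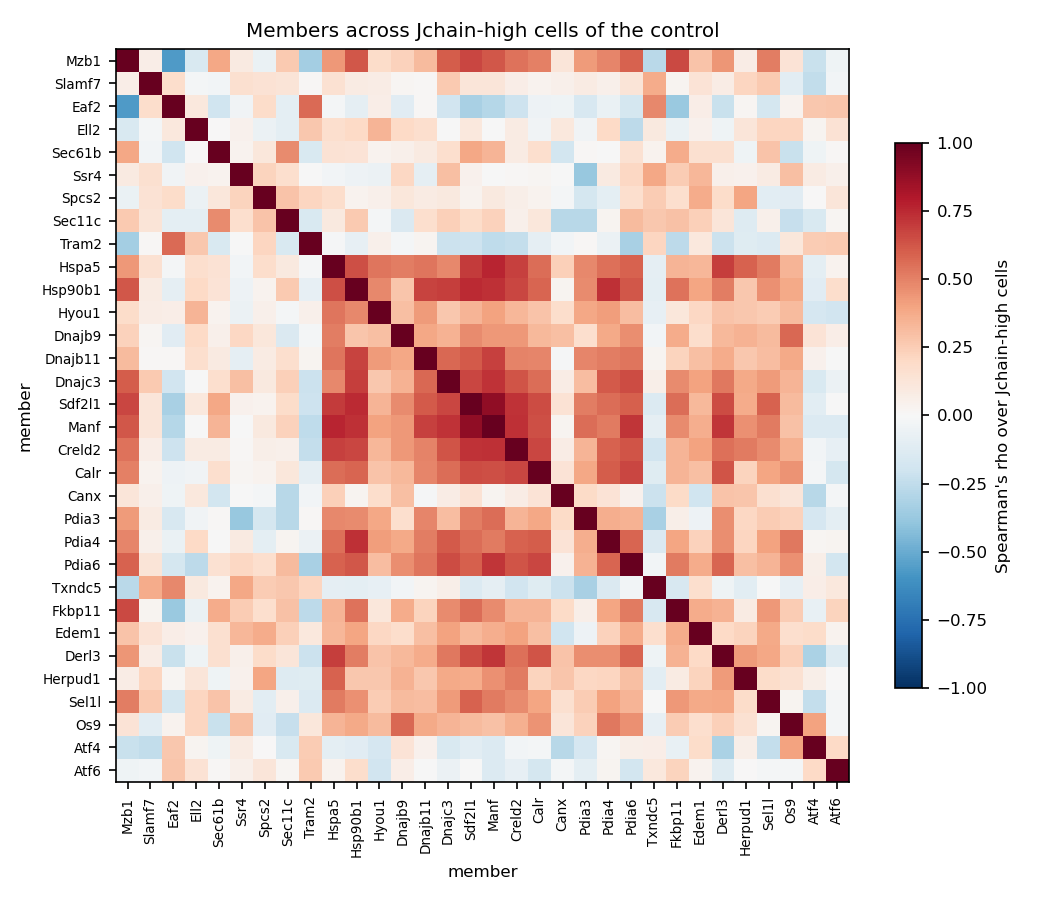
Spearman's rho between members over the 47 Jchain-high cells of the control, on levels per UMI outside immunoglobulin genes and Jchain. A block of positive values joins Hspa5, Hsp90b1, Sdf2l1, Manf, Creld2, Pdia4, Pdia6 and Derl3 (Sdf2l1 with Manf at 0.88), while the rows of Txndc5, Eaf2 and Atf6 mix positive and negative values, with medians of -0.03, -0.05 and 0.00.

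By heavy-chain isotype, 41 of the 47 cells were IgA, and these had a member sum of 29992 CPM. The single cells of IgM and IgG1 isotype were at 54778 and 79450 CPM, with Hsp90b1 at 13606 and 21661 CPM beside 4376 in the IgA cells. The single IgG2c cell was at 25596 CPM. With 1 cell each, these isotypes are values and not comparisons.

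Of other genes of the pathway, 65 of 69 in the matrix passed the filter. Of these, 2 were at least 5 times as high as in every other named class (background over all genes, 0.285%). They were Lman1, a cargo receptor for ER export, at 5.65 and the ubiquitin-conjugating Ube2j1 at 5.18. A further 15 were 2 to 5 times (background 0.89%) and 48 under 2 times as high. The median was 0.963, beside 0.237 over all genes. Over B-like cells the highest were Xbp1 at 29.7 (23.6 to 37.9), Lman1 at 14.8 (9.62 to 23.9) and Asns. Asns, an asparagine synthetase and Atf4 target, had 49 UMIs in Jchain-high and 0 in B-like cells. With the count used for a class at 0 its ratio was 15.1, and the exact lower limit was 11.9. The lowest were the stress phosphatase subunit Ppp1r15a at 0.27 (0.190 to 0.389), the oligosaccharyltransferase subunit Stt3b at 0.52 (0.374 to 0.703) and the Atf6-cleaving protease Mbtps1 at 0.53 (0.193 to 1.35). Of the sensors, Ern1 had 21 UMIs in Jchain-high and 0 in B-like cells, but stood at 57.3 CPM in NK-like cells. Formed in the same way as for Asns, its ratio over B-like cells was 6.49, and the exact lower limit was 4.83. Eif2ak3 was at 0.54 (0.302 to 0.931). With immunoglobulin genes and Jchain left out of the CPM, Eif2ak3 was at 0.99, Mbtps1 at 0.98, Stt3b at 0.95 and Ppp1r15a at 0.51. Xbp1 and Ern1 RNA were thus higher than in B-like cells, while Eif2ak3 and Stt3b were lower per UMI of the class but near 1 on the second scale. Mbtps1, with 8 UMIs in Jchain-high and 14 in B-like cells, had an interval that holds 1.

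Within B-like cells the summed members were higher in the Fcrl5 than in the Fcer2a cluster in both libraries. The control sums were 5131 and 3455 CPM, a ratio of 1.49 (1.39 to 1.59), and the knockout sums 5417 and 3712 CPM, a ratio of 1.46 (1.37 to 1.55). Median depth differed as well, at 6165 against 2929 UMIs per cell in the control and 3090 against 2500 in the knockout, and its part in the result was not tested. Of 18 members with enough UMIs, 2 were at least 1.5 times as high in both libraries (background 6.51%) and 1 at most 1/1.5 in both (background 6.47%). Mzb1 was at 1199 against 417 CPM (control) and 1110 against 454 CPM (knockout), ratios of 2.87 and 2.45. No other member differed by as many CPM in either library, so the ratios of the sums rest in good part on Mzb1. Hsp90b1 had ratios of 1.88 and 1.55, and Atf4 was lower in the Fcrl5 cluster, at 0.63 and 0.46. Dnajc3 was below 1 in both as well, at 0.87 and 0.95. The median log2 ratio over members was 0.34 and 0.35, beside 0.05 and 0.02 over all genes. With cells thinned to 1500 UMIs, a Mzb1 UMI was found in 40.5% of Fcer2a and 74.4% of Fcrl5 B-like cells of the control, and in 45.5% and 80.8% of the knockout; unthinned shares were 62.3%, 94.9%, 63.3% and 95.5%. In NK-like cells thinned to the same depth the share was 1.08% in the control.

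Between genotypes, B-like cells had a member sum of 4010 CPM (control) and 4847 CPM (knockout), a ratio of 1.21 (1.16 to 1.26). Within the clusters the ratio was smaller, at 1.07 (1.004 to 1.15) in Fcer2a and 1.06 (0.996 to 1.12) in Fcrl5 B-like cells, and the Fcrl5 cluster held 156 of the 295 knockout but 39 of the 238 control B-like cells. Named classes outside the B lineage had ratios between 1.01 and 1.23. Control and knockout sums were 4930 and 5365 CPM in NK-like cells (1.09, 1.04 to 1.14), 8798 and 9367 in pDC-like cells (1.06, 1.003 to 1.13), 4645 and 5716 in macrophage-like cells (1.23, 1.16 to 1.30) and 3778 and 4537 in basophil-like cells (1.20, 1.06 to 1.36). T-like cells were level, at 5069 and 5103 CPM (1.01, 0.956 to 1.06). Of the clusters without a name, those led by Gzmg and Gzmd (6886 and 6111 CPM) and by Ace and Ear2 (3656 and 3499.6 CPM) had the lower sum in the knockout. With 1 library per genotype, genotype and library cannot be told apart.

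**Figure D4:**
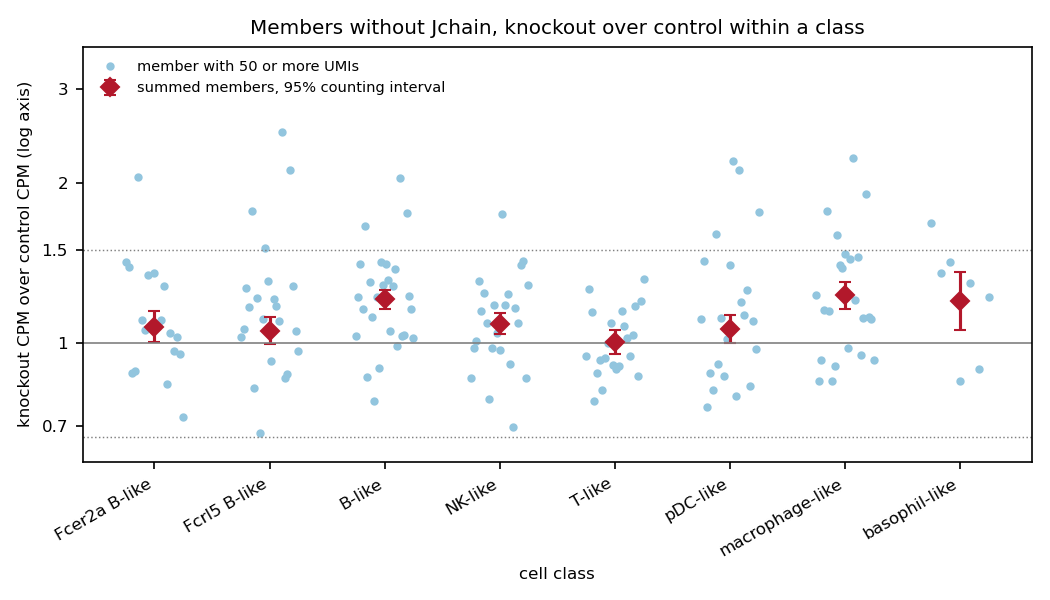
Knockout over control ratio (log axis) within each cell class. Small points are members with 50 or more UMIs over both libraries, diamonds the summed members with 95% counting intervals, and dotted lines 1.5 times in either direction; the sums of these named classes lie between 1.01 in T-like and 1.23 in macrophage-like cells, and no member is below the lower line.

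The members that passed 1.5 times between genotypes were higher in the knockout; Herpud1 in Fcrl5 B-like cells, at 0.68, was near the lower line and past it under 5 alternatives. In B-like cells these were 3 of 26 members besides Jchain: Slamf7 at 38.9 and 68.4 CPM in control and knockout (1.76, 1.17 to 2.68), Sdf2l1 at 29.2 and 59.8 CPM (2.05, 1.29 to 3.32) and Creld2 at 42.2 and 70.2 CPM (1.66, 1.12 to 2.50). Over all genes in this class 6.09% were past 1.5 times higher and 6.37% past 1.5 times lower. In Fcer2a B-like cells 1 of 19 passed, Dnajb9, at 40.4 and 82.9 CPM (2.05; background 5.55% higher and 5.85% lower). In Fcrl5 B-like cells 4 of 22 passed, Slamf7 (2.12), Sdf2l1 (2.49), Creld2 (1.77) and Hspa5 (1.51), with a background of 8.4% higher and 8.15% lower. Sdf2l1 there rests on 8 control and 50 knockout UMIs. Slamf7 rested largely on 6 cells described next: without them it was at 1.19 (0.758 to 1.88) in B-like and 1.37 (0.714 to 2.79) in Fcrl5 B-like cells. Mzb1 was at 1.32 (1.19 to 1.46) in all B-like cells, below the fold, and within the clusters at 1.09 (0.892 to 1.32) in Fcer2a and 0.93 (0.819 to 1.05) in Fcrl5 B-like cells.

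Outside the B lineage, Os9 was the 1 of 23 members past the fold in NK-like cells (104 and 182 CPM, 1.75; background 3.77% higher, 3.38% lower), and it was past it in pDC-like cells too (95.1 and 209 CPM, 2.20). The pDC-like cells, with 4 of 21 members, also had Pdia4 (2.11), Txndc5 (1.77) and Dnajc3 (1.60) past the fold, with a background of 5.35% higher and 5.42% lower; Dnajc3 was at 1.45 without the cell of most member UMIs in each library. Macrophage-like cells had 4 of 23, Pdia4 (2.22), Slamf7 (1.91), Creld2 (1.77) and Ell2 (1.60, 0.874 to 2.85), with a background of 5.9% higher and 7.53% lower, and there Pdia4 was at 1.49 without the cell of most member UMIs. Basophil-like cells had Hsp90b1 at 1.68, 1 of 7 members with enough UMIs (background 6.19% higher, 5.15% lower), and T-like cells had none of 22 (background 6.28% higher, 6.4% lower).

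The knockout held no Jchain-high cell, but 6 of its Fcrl5 B-like cells had 5 or more Jchain UMIs, against 0 in the control, where the highest B-like cell had 3. These cells were chosen for Jchain after its values were seen. They had 48, 18, 66, 80, 5 and 8 Jchain UMIs at total depths of 9369 to 23803 UMIs. Their heavy chains were IgA in 5 cells and IgG2c in 1, with 5 distinct junctions among the 6. All had Ms4a1 (CD20) UMIs, 6 to 17 each, and none had a UMI of Sdc1 (CD138) or Prdm1. Their Jchain level, 2330 CPM, was 5.94% of that of the control Jchain-high cells.

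The members did not follow to equal degree in these 6 cells. The sum without Jchain was 5810 CPM (5339 to 6311), near the 5417 CPM of their cluster and far below 31617 CPM in control Jchain-high cells. Against those plasma cells Mzb1 was at 19.4% (942 CPM), Txndc5 at 26.2% (549 CPM), Hspa5 at 11.2%, Hsp90b1 at 5.78% and Derl3, with 2 UMIs, at 2.61%. Fkbp11, Tram2 and Hyou1 had 0 UMIs in 96564, which allows up to 3 counts each. Slamf7 stood at 109% (311 CPM, 210 to 444) of the plasma cell level, and Eaf2 at 95.2% (342 CPM, 235 to 480). These percentages are over all UMIs. Immunoglobulin genes and Jchain took 47.2% of the UMIs of Jchain-high cells, against 3.28% in the knockout Fcrl5 cluster. That lowers the plasma cell levels, so the near-equal values of Slamf7 and Eaf2 depend on the denominator. The Eaf2 UMIs lay in 2 cells, with 21 and 12, and were at 0 in the other 4. The Slamf7 UMIs were 5, 0, 11, 5, 8 and 1 in the 6 cells, so the level of the sum does not hold for each cell. Beside the knockout Fcrl5 cluster as a whole, the ER members went both ways: Txndc5 (549 against 249.9 CPM) and Sec61b (715 against 449 CPM) were higher, and Hspa5 (186 against 345 CPM) and Hsp90b1 (290.0 against 499.8 CPM) lower.

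**Figure D5:**
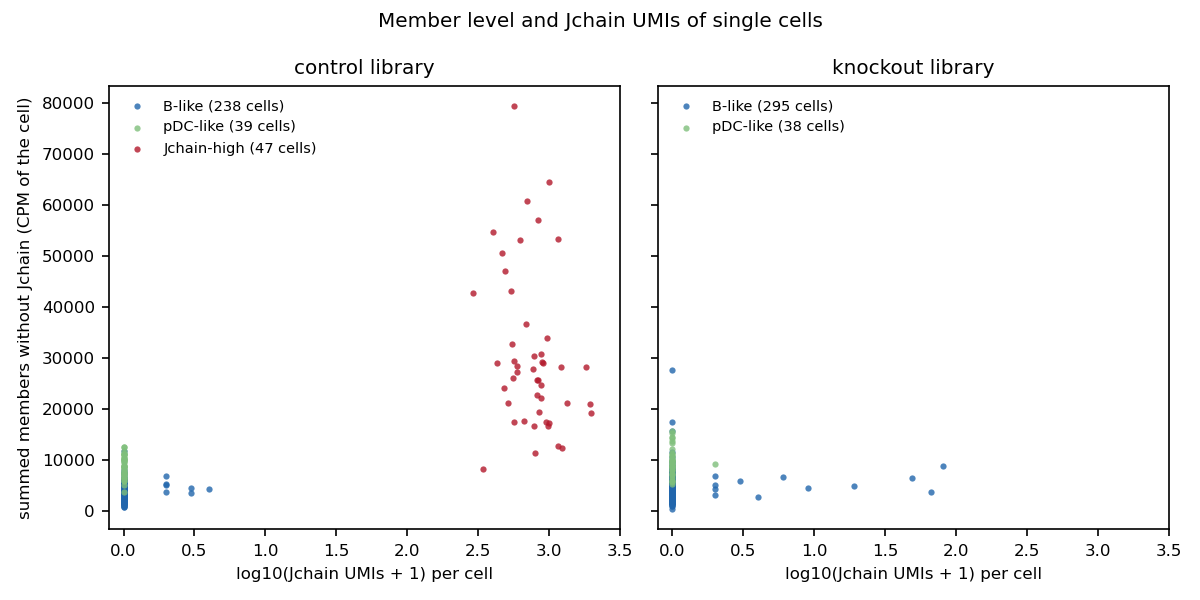
Summed members without Jchain, as CPM of the cell, against log10 of Jchain UMIs plus 1, for B-like, pDC-like and Jchain-high cells of each library (points are cells). The 47 Jchain-high cells stand to the right and mostly above 10000 CPM, and the 6 knockout B-like cells with 5 or more Jchain UMIs lie between 3739 and 8907 CPM.

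By isotype, Jchain in B-like cells was nearly confined to switched cells of the knockout, where most of it lay in the 6 cells above. In the knockout 32 switched cells had a sum of 5805 CPM and 251 unswitched cells 4487 CPM, and 233 of the 234 Jchain UMIs of knockout B-like cells lay in switched cells. In the control 6 switched cells were at 4783 CPM and 70 unswitched cells at 4618 CPM. All 6 control and 30 of the 32 knockout switched cells lay in the Fcrl5 cluster. Within that cluster the switched and unswitched cells were at 5832 and 5128 CPM in the knockout, and at 4783 and 5583 CPM in the control, the opposite order. Switched knockout cells were deeper, at a median of 8936 against 2679 UMIs, and the part of depth was not tested. A heavy chain was missing for 162 of 238 control but for 12 of 295 knockout B-like cells, so isotypes are not compared between genotypes.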

How the data were processed

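The deposited files are UMI counts per gene and cell and V(D)J contig tables with UMI counts, deposited by the authors; the submitters' processing notes name Cell Ranger 6.0.0 and the mouse builds GRCm38 and mm10. Barcodes with under 200 genes, over 10% mitochondrial UMIs, a Scrublet doublet call or 2 heavy-chain junctions were removed. Cells of both libraries were clustered together with Scanpy 1.11.5 (2000 variable genes, 30 components, 15 neighbours, Leiden resolution 1), without immunoglobulin genes and members, and clusters were named "-like" from marker lists. Cells keep the name only with 2 or more markers of it, a rule chosen after seeing the data; 4 clusters stayed unnamed. Member and pathway lists were chosen with earlier results of these data known. Named genes were all 33 members and, of 70 other pathway genes, the 3 highest and 3 lowest Jchain-high over B-like ratios, Xbp1, Ern1 and Eif2ak3. UMIs were summed per class and library and given as CPM with exact Poisson intervals; ratios have exact conditional binomial and shares Clopper-Pearson intervals. A class at 0 was set to 3 counts so that a ratio could be formed. The ratio script was tested on simulated data. Alternatives were the filters, clustering, denominator, thresholds, deepest cell and Jchain-positive cells.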

Additional observations from a re-analysis of the deposited data

How the results depend on the processing

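Of 78 recomputed sums, counts and shares, 72 stayed within their counting interval, or within 1.5 times for a count, and none reversed. With immunoglobulin genes and Jchain left out of the CPM, the members at least 5 times as high as every other named class went from 9 to 17. Jchain, which sets the class, is in both counts. The sum in Jchain-high over B-like cells went from 7.88 to 14.6. This follows from the smaller denominator of the plasma cells. With the members kept among the clustering genes, the macrophage-like ratio of knockout to control was 1.12 in place of 1.23, and the cause was not tested. A filter of 20 in place of 50 UMIs raised the pairs of member and class past 1.5 times, in the 6 classes of the design and with Jchain, from 19 to 32. The B-like share with a Mzb1 UMI was 46.2% (control) and 64.2% (knockout) at 1500 UMIs, and 34.9% and 53.3% at 1000 UMIs. The side of the 1.5-fold line changed under some setting for 14 pairs of member and class. Among these, Hspa5 in Fcrl5 B-like cells fell to 1.27 with all barcodes, and Slamf7 and Ell2 in macrophage-like cells to 1.32 and 1.23 at Leiden resolution 0.5. Herpud1 in Fcrl5 B-like cells went from 0.68 past the lower line under 5 alternatives, at 0.63 to 0.66. The own-marker rule and the Jchain-positive cells were added as alternatives after seeing the data. No paired analysis was possible because there is 1 library per genotype. Depth limits sparse members: Tram2 and Fkbp11 are near 0 in most classes other than the Jchain-high cells, and a low level there could not be told from none.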

Other observations

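A cluster that no marker list named, led by Tnfsf10 and Trbv16, held 52 knockout cells and 1 control cell. Its member sum was 13860 CPM (13221 to 14521), the highest outside the Jchain-high cells, at a median of 1939 UMIs per cell. Hspa5 there was at 2701 CPM, Hsp90b1 at 2326, Pdia3 at 1832 and Canx at 1128 CPM, while Canx was at 151 CPM in the Jchain-high cells. With 1 control cell the cluster allows no comparison of genotypes; library and cell type cannot be told apart here.

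Among knockout B-like cells, the highest member level, 27632 CPM, was in an IgM cell with 0 Jchain UMIs and 1520 UMIs in all, of which 42 were members.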
